A study of Mus musculus with 6 samples.

Results

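The 10 genes described here encode enzymes that make, convert or break down sphingomyelin and ceramide: Sptlc1, Sptlc2, Cers2, Degs1, Sgms1, Sgms2, Smpd1, Asah1, Sphk1 and Ugcg. They were taken by gene symbol from the 27198 genes of the deposited expression table, and each symbol matched 1 protein-coding gene. The table holds read counts for hematopoietic stem cells (HSCs) sorted from bone marrow of wild-type, male C57BL/6 mice aged 8 to 10 weeks, without irradiation. The 3 control (Ctrl) libraries came from mice given solvent, and the 3 l-FA libraries from mice given ferulic acid (FA), a plant phenolic antioxidant, intraperitoneally at 50 mg/kg each day over 30 days. HSCs were sorted as Lineage-, Sca-1+, c-Kit+, Flk2- and CD34- cells. How many mice stand behind a library is not given in the sources used here, so p-values measure only the spread between these libraries, which may be technical. The genes were selected on the difference between these groups, since the fall of Sgms2 in the same libraries was already known. Their differences between Ctrl and l-FA are therefore given as a description, with no p-value.

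Sphingolipids are built on a long-chain base that serine palmitoyltransferase makes from serine and palmitoyl-CoA. Ceramide synthases add an acyl chain and a desaturase completes ceramide, from which sphingomyelin or glucosylceramide is made. Sphingomyelinases release ceramide again, ceramidases cut it to sphingosine, and sphingosine kinases turn sphingosine into sphingosine 1-phosphate, a signal that guides the traffic of blood cells out of bone marrow. Sphingomyelin itself is a main lipid of the outer leaflet of the plasma membrane.

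Among the 10 genes, Sgms2 differed most between the groups, and the 2 sphingomyelin synthases differed in opposite directions. Sgms2 was 14.5-fold lower in l-FA, whereas Sgms1 was 1.61-fold higher. Sphk1 was 1.97-fold lower at a low level, and the other 7 genes lay within 1.17-fold of Ctrl in either direction. RefSeq (GRCm38.p6) lists several transcription starts for both synthases, 4 for Sgms1 and 6 for Sgms2, and counts per gene do not tell which start was used. Promoter windows of the synthases are shown because these genes moved apart. Each window runs 5′ to 3′ on the minus strand from 250 bases before to 50 bases after a listed start, and capitals mark the motifs searched. The first belongs to the most upstream start of Sgms1 (chr19:32388463-32388762), the second to the most upstream start of Sgms2 (chr3:131491394-131491693), and the third to the Sgms2 start with the highest GC content (chr3:131490181-131490480).
Sgms1, upstream start: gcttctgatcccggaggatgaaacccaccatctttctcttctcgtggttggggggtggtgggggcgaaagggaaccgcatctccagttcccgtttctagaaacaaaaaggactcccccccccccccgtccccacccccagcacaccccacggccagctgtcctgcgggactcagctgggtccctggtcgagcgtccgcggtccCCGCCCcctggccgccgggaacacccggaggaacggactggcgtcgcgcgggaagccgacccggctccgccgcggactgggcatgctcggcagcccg
Sgms2, upstream start: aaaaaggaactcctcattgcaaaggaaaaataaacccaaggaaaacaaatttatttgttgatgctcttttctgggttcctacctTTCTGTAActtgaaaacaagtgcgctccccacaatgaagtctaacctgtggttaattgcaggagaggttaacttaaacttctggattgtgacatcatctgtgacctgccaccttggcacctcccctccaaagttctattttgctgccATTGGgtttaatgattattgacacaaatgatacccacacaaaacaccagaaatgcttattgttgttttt
Sgms2, GC-rich start: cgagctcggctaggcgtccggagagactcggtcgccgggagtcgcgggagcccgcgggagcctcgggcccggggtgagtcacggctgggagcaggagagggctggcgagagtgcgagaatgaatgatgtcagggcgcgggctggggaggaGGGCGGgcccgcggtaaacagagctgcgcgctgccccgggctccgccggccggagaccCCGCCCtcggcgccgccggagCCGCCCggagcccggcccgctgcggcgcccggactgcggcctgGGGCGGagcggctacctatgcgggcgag

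The 5 motifs, searched on both strands, were the CCAAT box (CCAAT), the GC box (GGGCGG), the core of the antioxidant response element bound by NRF2 (TGACNNNGC), a C/EBP motif (TTNNGNAA) and an ETS core (AGGAAG). The upstream Sgms1 window had 69.3% GC with 28 CG dinucleotides and a single GC box, 47 to 42 bases before the start. The upstream Sgms2 window had 39.0% GC with 1 CG dinucleotide, a CCAAT box 19 to 15 bases before the start and a C/EBP motif 166 to 159 bases before it. The GC-rich Sgms2 window had 77.7% GC and 4 GC boxes. Over all their listed starts, GC content ranged from 46.0% to 77.3% for Sgms1 and from 39.0% to 77.7% for Sgms2. The contrast between the upstream windows thus rests on the starts shown. Across all 32851 windows of the table the median GC content was 52.7%. Starts of 9 of the 10 genes were matched, with 22 windows in all. Of these windows 9 held a CCAAT box (37.4% of all windows do), 10 a GC box (35.7%), 3 the antioxidant response element core (12.4%), 8 the C/EBP motif (40.7%) and 8 the ETS core (35.4%). These letters are a description of the windows and do not show binding.

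The libraries were alike in depth, with 19287735 to 20380610 counts. Levels below are TMM-normalized CPM, the counts relative to library size after scaling with edgeR's TMM factors, and differences are log2 fold changes of l-FA against Ctrl, each with its standard error (SE), from a fit over the 16520 genes that passed edgeR's low-count filter. All 10 genes passed it. As a check of the label, 7 of 10 HSC marker genes rose and 1 fell (adjusted p under 0.05, edgeR), with a summed level (CPM without TMM factors) of 1535 to 1561 in Ctrl and 1852 to 1858 in l-FA. Transcripts of both proteins that the sort excludes were abundant, with Cd34 at 1343 ± 18.4 CPM and Flt3 at 759 ± 3.43 CPM in Ctrl (SD, n = 3), and both were higher in l-FA.

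**Figure D1:**
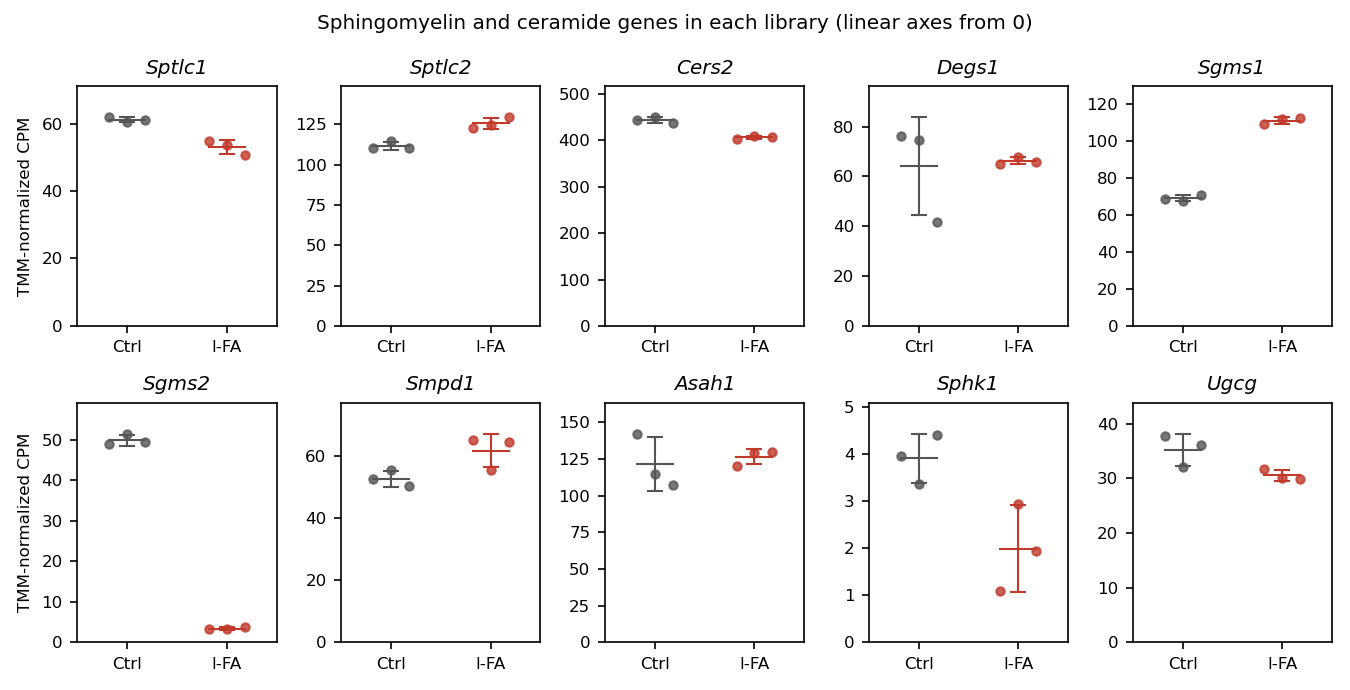
TMM-normalized CPM of each of the 10 genes (vertical axes, linear and starting at 0) in the 3 Ctrl and 3 l-FA libraries; points are libraries, and bars show the mean and SD. Sgms2 drops from about 50 to under 4 CPM, Sgms1 moves the other way, and 1 Ctrl library of Degs1 lies far below the others.

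Sgms2 (ENSMUSG00000050931, chr3:131112634-131197172 in GRCm39, the build named in the submitters' processing notes) encodes sphingomyelin synthase 2, which moves phosphocholine onto ceramide at the plasma membrane and the Golgi. Ctrl libraries held 938, 960 and 984 counts of it, and l-FA libraries 68, 64 and 77. In CPM this was 48.9, 51.5 and 49.4 in Ctrl against 3.24, 3.19 and 3.86 in l-FA. Every l-FA library lay far below every Ctrl library, and libraries of a group hardly differed. The log2 fold change was -3.86 (SE 0.0872), and the index of dispersion within a group, which is 1 under counting error alone, was 0.702 in Ctrl and 0.807 in l-FA. Of the genes tested, 0.95% had a lower log2 fold change, and among the 11442 genes at a mean of at least 5 CPM only 1 other fell as far. No other listed gene overlaps Sgms2.

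Sgms1 (ENSMUSG00000040451, chr19:32100127-32367114) encodes the synthase of the Golgi. Its counts were 1321, 1264 and 1417 in Ctrl and 2292, 2247 and 2246 in l-FA. Mean CPM (± SD, n = 3) was 69.2 ± 1.72 for Ctrl and 111 ± 1.80 for l-FA, with no overlap between the groups. The log2 fold change was 0.68 (SE 0.0342), above that of 88.3% of the genes tested. The antisense gene Sgms1os1 overlaps it, with at most 2.73 CPM in a library, as does the noncoding gene Gm50210, which did not pass the low-count filter. The sources used here do not say if strand was used in counting.

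The count ratio of Sgms1 to Sgms2 needs no scaling between libraries. It was 1.41, 1.32 and 1.44 in Ctrl and 33.7, 35.1 and 29.2 in l-FA. Sgms1 was thus slightly the more counted gene in Ctrl and by far the more counted one in l-FA. Summed over both genes, the level was 118 to 121 CPM in Ctrl and 112 to 116 in l-FA, a ratio of 0.962. Per length the sum depended on which length was used. With the deposited FPKM values, which divide counts by a gene length and by depth, the sum was 10.1 ± 0.142 for Ctrl and 6.51 ± 0.111 for l-FA (SD, n = 3), a ratio of 0.646. With the merged exons of each gene in GENCODE M21 as its length, the ratio was 0.803. On the FPKM scale Sgms2 made up 64.7% ± 1.06 of the pair for Ctrl and 7.25% ± 0.667 for l-FA (SD, n = 3). With merged exons these shares were 55.0% and 4.96%.

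**Figure D2:**
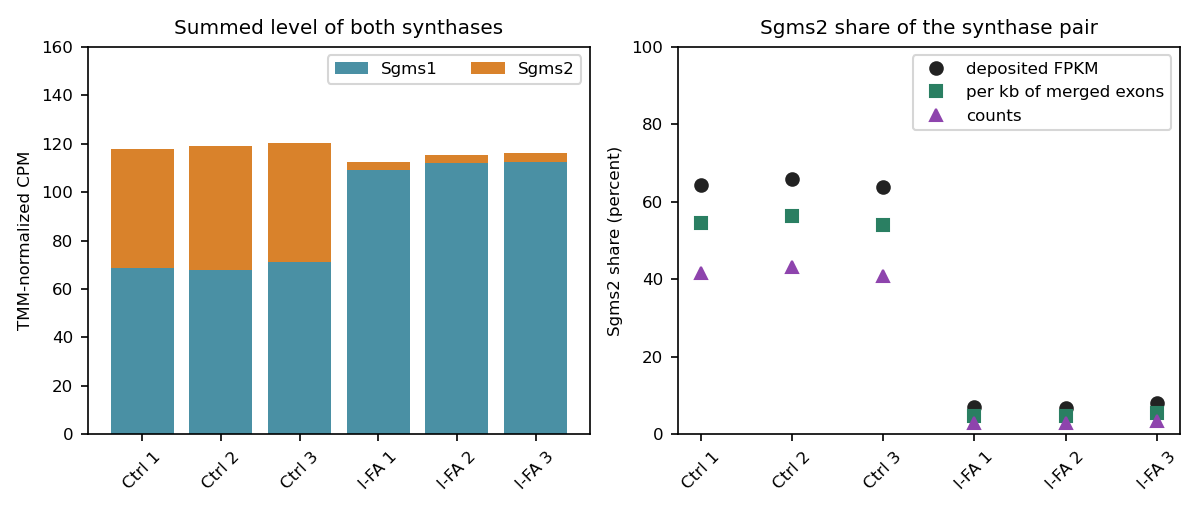
Left, TMM-normalized CPM of Sgms1 and Sgms2 stacked for each of the 6 libraries; right, the share of Sgms2 in the pair in percent on 3 scales (deposited FPKM, per kilobase of merged exons, counts). The stacked height stays between 112 and 121 CPM while the Sgms2 part nearly vanishes in l-FA, and the l-FA share stays low on each scale. CPM takes no account of gene length. Per length, the sum in l-FA was 0.646 (deposited FPKM) or 0.803 (merged exons) of that in Ctrl.

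Of the cell type lists given at the end, only T and NK cells, nearly all Nkg7, had a lower summed level in l-FA. The other lists there were higher. Most granulocyte and monocyte marker genes were lower in l-FA, as was Sgms2. Of 12 such genes, all tested, 10 fell and 2 rose (adjusted p under 0.05, edgeR), beside 25.0% lower and 25.5% higher of all genes. Those that rose were Lyz2 (log2 fold change 0.30) and Csf1r (0.10). The summed level of the 12 (CPM without TMM factors) was 23010 to 23665 in Ctrl and 6384 to 6651 in l-FA. Mpo, the neutrophil peroxidase, made up most of it, with a mean of 18544 CPM in Ctrl and 4938 in l-FA. None of the 12 was at 0 counts in all libraries. The part of these cells in the fall of Sgms2 was not tested. In such bulk libraries, fewer cells of a type and less RNA per cell cannot be told apart. The 5 genes with the profile most like that of Sgms2, by root mean square distance of centred log2 CPM over the 6 libraries among 11441 genes at a mean of at least 5 CPM, were Chst13 (0.348), Igkv4-61 (0.431), Elane (0.441), Cldn15 (0.442) and Prom1 (0.457), where the median gene lay at 1.84. Chst13 encodes a chondroitin sulfotransferase, Elane the neutrophil elastase, Cldn15 a tight junction protein and Prom1 the membrane protein prominin 1. Igkv4-61, an immunoglobulin kappa variable gene, had 249, 224 and 229 counts in Ctrl and 1 in each l-FA library. Its log2 fold change was -7.78, and the 0.5 CPM added before the logarithm brought it nearer to Sgms2. The distance used the same libraries in which the fall of Sgms2 was known, so nearness mostly reflects a large fall in l-FA. No link between these genes and Sgms2 is read from it.

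The subunits of serine palmitoyltransferase differed in opposite directions by small amounts. Sptlc1 (ENSMUSG00000021468, chr13:53486784-53531433) had 61.9, 60.5 and 61.1 CPM in the Ctrl libraries but 54.8, 53.7 and 50.8 under l-FA, a log2 fold change of -0.20 (with SE 0.0424). Sptlc2 (ENSMUSG00000021036, chr12:87351832-87435129), which carries the catalytic site, went from 110, 115 and 110 CPM to 123, 124 and 129, a log2 fold change of 0.17 (with SE 0.0340). Neither gene's groups overlapped. The count ratio of Sptlc2 to Sptlc1 within a library was 1.83 ± 0.0602 for Ctrl and 2.37 ± 0.158 for l-FA (SD, n = 3), a measure of their relative change that needs no scaling between libraries.

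Cers2 (ENSMUSG00000015714, chr3:95222102-95230910), the ceramide synthase that prefers very long acyl chains, was the most abundant of the 10 genes. It had 8388 to 8729 counts in Ctrl and 8132 to 8451 in l-FA. Mean CPM (± SD, n = 3) was 443 ± 5.75 for Ctrl and 406 ± 3.28 for l-FA, without overlap, and its log2 fold change was -0.13 (SE 0.0198). The coefficient of variation of CPM between libraries was 1.3% in Ctrl and 0.807% in l-FA, smaller than the difference. The size of the difference depended on scaling. By deposited FPKM, which lacks the TMM factor, it was 66.6 ± 0.532 for Ctrl and 64.4 ± 0.297 for l-FA (SD, n = 3). With upper-quartile factors the log2 fold change was -0.10. Setdb1 and the noncoding gene 6330562C20Rik overlap the gene.

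Degs1 (ENSMUSG00000038633, chr1:182103337-182110369), the desaturase that turns dihydroceramide into ceramide, had 1467, 1391 and 831 counts in Ctrl and 1367, 1363 and 1317 in l-FA. Ctrl replicate 3 lay far below the other libraries, and the groups overlapped. The index of dispersion was 117 in Ctrl and 0.664 in l-FA. The log2 fold change was 0.05 (SE 0.217), and without Ctrl replicate 3 it was -0.19, so its direction rests on that library.

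Smpd1 (ENSMUSG00000037049, chr7:105203567-105207596), the acid sphingomyelinase of the lysosome, had 52.4, 55.3 and 50.2 CPM in Ctrl and 65.2, 55.4 and 64.3 in l-FA. The lowest l-FA library was only just above the highest Ctrl library. The log2 fold change was 0.23 (SE 0.0740), from 0.19 without Ctrl replicate 3 to 0.31 without l-FA replicate 2. Asah1 (ENSMUSG00000031591, chr8:41793234-41827810), the acid ceramidase of the lysosome, had 142, 115 and 107 CPM in Ctrl and 121, 129 and 130 in l-FA. The highest value of all was in Ctrl replicate 1, and the groups overlapped. Its log2 fold change was 0.06 (SE 0.104), 0.19 without Ctrl replicate 1 and -0.03 without Ctrl replicate 3. The count ratio of Asah1 to Smpd1 was 2.31 ± 0.353 for Ctrl and 2.07 ± 0.246 for l-FA (SD, n = 3), a difference within the spread of either group.

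Sphk1 (ENSMUSG00000061878, chr11:116421751-116427501), a kinase that makes sphingosine 1-phosphate, was the least abundant of the 10 genes. Its counts were 76, 63 and 88 in Ctrl and 23, 59 and 39 in l-FA. The groups did not overlap, but l-FA replicate 2 came close to Ctrl replicate 2. The level went from 3.92 ± 0.522 CPM to 2.0 ± 0.924 (SD, n = 3). The log2 fold change was -0.98 (SE 0.328), -0.66 without l-FA replicate 1 and -1.35 without l-FA replicate 2. Ugcg (ENSMUSG00000028381, chr4:59189257-59222833), which makes glucosylceramide and so opens the glycosphingolipid branch, had 37.7, 32.0 and 36.0 CPM in Ctrl and 31.7, 30.1 and 29.8 in l-FA. All l-FA values were lower by CPM, the nearest by a narrow margin, while by deposited FPKM, which lacks the TMM factor, Ctrl replicate 2 (5.28) lay below l-FA replicate 1 (5.57). The log2 fold change was -0.21 (SE 0.0722).

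**Figure D3:**
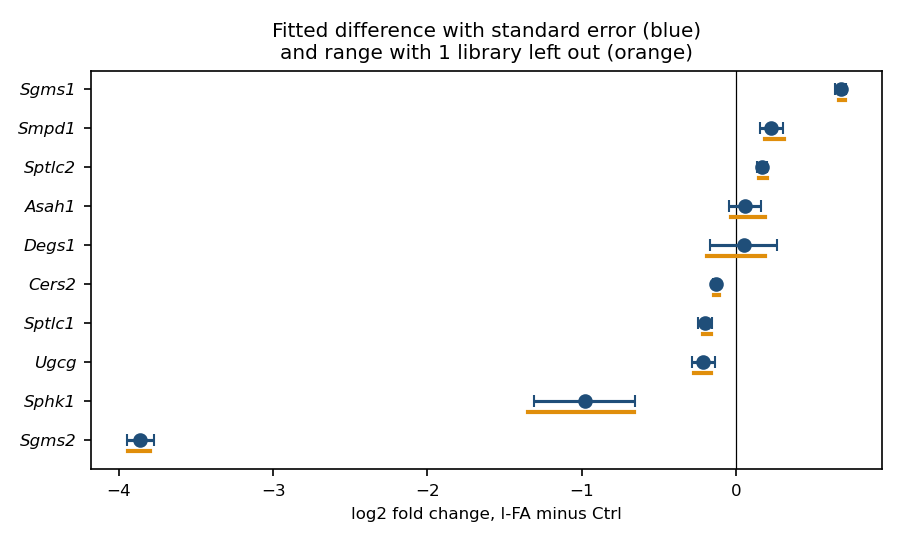
Log2 fold change of l-FA against Ctrl (horizontal axis) for the 10 genes; blue points and bars are the edgeR estimate and its standard error, and orange lines span the estimates with 1 library left out in turn. Sgms2 at -3.86 stands apart from the rest, and the orange lines of Asah1 and Degs1 cross 0.

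In that fit, 3 of the 10 genes were higher at an adjusted p under 0.05 (Sgms1, Smpd1 and Sptlc2), beside 25.5% of all genes tested, and 4 were lower (Sgms2, Sptlc1, Cers2 and Sphk1), beside 25.0% (50.5% in either direction). With a change of at least 2-fold as well, Sgms2 alone was called, beside 5.1% of all genes lower and 6.68% higher (11.8% in either direction). The l-FA libraries all lay above Ctrl for 3 of the 10 genes, beside 30.4% of all genes, and all below for 5, beside 29.9%; without regard to direction the background was 60.3%. Since the contrast was known when the genes were selected, nothing is read from these counts or from the calls of single genes, here or below. Their log2 fold changes had a median of -0.04, beside 0.0035 over all genes. Smpd1 and Sphk1 were past the threshold in only 1 of the 6 fits that left out a library, the fit without l-FA replicate 2. Asah1 was past it only without Ctrl replicate 1, Degs1 only without Ctrl replicate 3, and Ugcg without Ctrl replicate 2 and with DESeq2.

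Compared per length, the order of the 10 genes in Ctrl by deposited FPKM was Cers2 (66.6 ± 0.532), Asah1 (21.1 ± 3.16), Sptlc1 (16.1 ± 0.225), Degs1 (15.4 ± 4.63), Sptlc2 (9.83 ± 0.185), Smpd1 (9.63 ± 0.421), Sgms2 (6.52 ± 0.157), Ugcg (5.84 ± 0.502), Sgms1 (3.56 ± 0.108) and Sphk1 (0.249 ± 0.0345; SD, n = 3 for each). Sptlc1 and Degs1 overlapped in their libraries, as did Sptlc2 and Smpd1, so these neighbours did not differ beyond their spread. In l-FA, Sgms1 (6.04 ± 0.0758) stood seventh and Sgms2 (0.473 ± 0.0503) ninth, so that the synthases changed places. Smpd1 and Sptlc2 overlapped there. The length behind the deposited FPKM is not a transcript length. For Sphk1 it was 15279 bases, although the gene spans 5751 bases in the table, and for Sgms1 it was 18890 bases, against 10546 bases of merged exons in GENCODE M21. With merged exons 6 of the 10 genes kept their place in Ctrl, and the first 2 places, Sgms2 in seventh and the last 3 places did not change.

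The other genes of sphingolipid metabolism were taken from a list by role, written with earlier results of these data known. Of 66 symbols outside the 10 genes, 59 were matched in the table and 55 were tested. At an adjusted p under 0.05 (edgeR), 14 were higher (25.5%) and 14 lower (25.5%), beside the 25.5% and 25.0% of all genes given above. The median log2 fold change was 0.00. Thus the share of these genes that changed was near the background. Single roles hold only 2 to 13 tested genes, so no pattern of a role is read from its counts below. Of those described below, Degs2, Ormdl2, Cers6, Sptssa, Samd8, Cert1, Smpd3, Cerk, B4galnt1, Gba2, Arsa, Hexa, Spns2, S1pr3 and Sphk2 overlap another listed gene and may share reads with it.

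In de novo synthesis, 1 of 10 tested genes rose and 3 fell. Kdsr, the reductase after serine palmitoyltransferase, rose, and Ormdl2, a regulator of that enzyme, fell by 0.37 on the log2 scale (all named after their values were seen, as was Cers6). Degs2, a desaturase with a hydroxylase activity, had 37, 53 and 63 counts in Ctrl and 12, 6 and 5 in l-FA, a log2 fold change of -2.79 (with SE 0.343, adjusted p = 0.000787, edgeR). Cers6, a ceramide synthase for shorter acyl chains, fell from 53.3 ± 2.18 CPM to 29.4 ± 0.616 (SD, n = 3; log2 fold change -0.86, adjusted p = 4.42e-05, edgeR). The count ratio of Cers2 to Cers6 within a library was 8.33 ± 0.306 for Ctrl and 13.8 ± 0.273 for l-FA (SD, n = 3). Sptssa, a small subunit of serine palmitoyltransferase and the most abundant gene of the role, had a log2 fold change of 0.00 (with SE 0.135, adjusted p = 0.999, edgeR) with 3472, 3366 and 5085 counts in Ctrl. Without Ctrl replicate 3, which also set Degs1 apart, it was 0.18 (adjusted p = 0.00825, edgeR).

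Around sphingomyelin, neither Samd8, a relative of the synthases that makes ceramide phosphoethanolamine, nor Cert1, which carries ceramide to the Golgi, passed the test. Samd8 had a log2 fold change of 0.36 (with SE 0.131, adjusted p = 0.0604, edgeR), with 0.0184 without l-FA replicate 1, and Cert1 of 0.09 (SE 0.0907, adjusted p = 0.475, edgeR). Among 6 sphingomyelinase genes tested, 1 rose and 1 fell, each near 0 counts in a group. Smpdl3b, a membrane relative of acid sphingomyelinase, had no count in any Ctrl library and 23, 32 and 33 in l-FA (adjusted p = 0.000859, edgeR). At a floor of 3 counts per library it was at least 9.25-fold higher. Smpd3, the neutral sphingomyelinase 2, had 23, 41 and 35 counts in Ctrl and 1, 0 and 0 in l-FA (adjusted p = 0.000348, edgeR), a ratio of 105 (exact 95% interval 18.3 to 4172, for counting error only). Smpd4, the most abundant of the role, had 2383, 1627 and 2353 counts in l-FA and a log2 fold change of -0.22 (with SE 0.135, adjusted p = 0.227, edgeR).

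Of 5 ceramidase and ceramide kinase genes, 2 rose and none fell. The neutral ceramidase gene Asah2 had a log2 fold change of 0.67 (with SE 0.123, adjusted p = 0.0042, edgeR), with 55, 49 and 65 counts in Ctrl and 99, 89 and 96 in l-FA, and the alkaline ceramidase gene Acer2 (named after its values were seen) one of 0.61. Cerk, the ceramide kinase, had 2447, 2436 and 1626 counts in Ctrl and 1902, 1157 and 1809 in l-FA. Its groups overlapped, and its log2 fold change of -0.51 did not pass (SE 0.237, adjusted p = 0.12, edgeR), but did without Ctrl replicate 3 (adjusted p = 0.0356, edgeR).

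In glycosphingolipid synthesis, 4 of 8 tested genes fell and none rose, with a median log2 fold change of -0.44. B4galnt1, which builds gangliosides of the GM2 and GD2 type, was the most abundant. It had 11645, 11497 and 12030 counts in Ctrl and 7579, 7321 and 7487 in l-FA, a log2 fold change of -0.73 (with SE 0.0220, adjusted p = 4.84e-06, edgeR). Ugt8a, which makes galactosylceramide, fell from 19, 18 and 26 counts to 2, 0 and 4 (adjusted p = 0.00264, edgeR). St3gal5, the GM3 synthase, and B4galt6, a lactosylceramide synthase, fell by 0.92 and 0.61 on the log2 scale (both named after their values were seen). Ugcg, at the head of this branch, had a log2 fold change of -0.21, as given above.

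In glycosphingolipid breakdown, which takes place in the lysosome for most of these enzymes, 5 of 11 tested genes rose and 4 fell. Psap, whose product is cut into the saposins that present lipids to these enzymes, rose from 738 ± 2.30 CPM to 908 ± 8.33 (SD, n = 3; log2 fold change 0.30, adjusted p = 3.45e-05, edgeR). Gla, the alpha-galactosidase, fell from 401, 445 and 470 counts to 239, 261 and 259 (log2 fold change -0.87, SE 0.0887, adjusted p = 0.000367, edgeR). Gba2, Arsa and Gm2a were also higher and Hexa and Neu1 lower (these 5 named after their values were seen). Hexa, a subunit of beta-hexosaminidase, had a log2 fold change of -0.60 (adjusted p = 1.86e-05, edgeR), and Gba2, a glucosylceramidase outside the lysosome, one of 0.56 (adjusted p = 0.000194, edgeR).

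Among 13 tested genes of sphingosine 1-phosphate, 5 rose and 2 fell. Sgpp1, a phosphatase that returns sphingosine 1-phosphate to sphingosine, had 1164, 1093 and 1151 counts in Ctrl and 411, 355 and 401 in l-FA. Its fall, a log2 fold change of -1.63 (with SE 0.0613, adjusted p = 1.1e-05, edgeR) passed the 2-fold limit. Sgpl1, the lyase that breaks sphingosine 1-phosphate down for good, rose from 93.0 ± 6.32 CPM to 116 ± 3.21 (SD, n = 3; log2 fold change 0.32, adjusted p = 0.00293, edgeR). The receptor genes S1pr1 (log2 fold change 0.64) and S1pr4 (0.42) were higher, and the exporter gene Spns2, the dehydrogenase gene Aldh3a2 and the receptor gene S1pr3 were called with smaller changes (all 5 named after their values were seen). Spns2, with a log2 fold change of 0.17, did not pass without l-FA replicate 1 or any 1 of the Ctrl replicates. Aldh3a2 did not pass without Ctrl replicate 1, l-FA replicate 2 or l-FA replicate 3, and S1pr3 passed only without Ctrl replicate 3. The highest adjusted p in these fits was 0.0999, 0.0662 and 0.113 (edgeR). Sphk2, the other sphingosine kinase, had a log2 fold change of -0.06 (adjusted p = 0.395, edgeR; named after its values were seen).

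**Figure D4:**
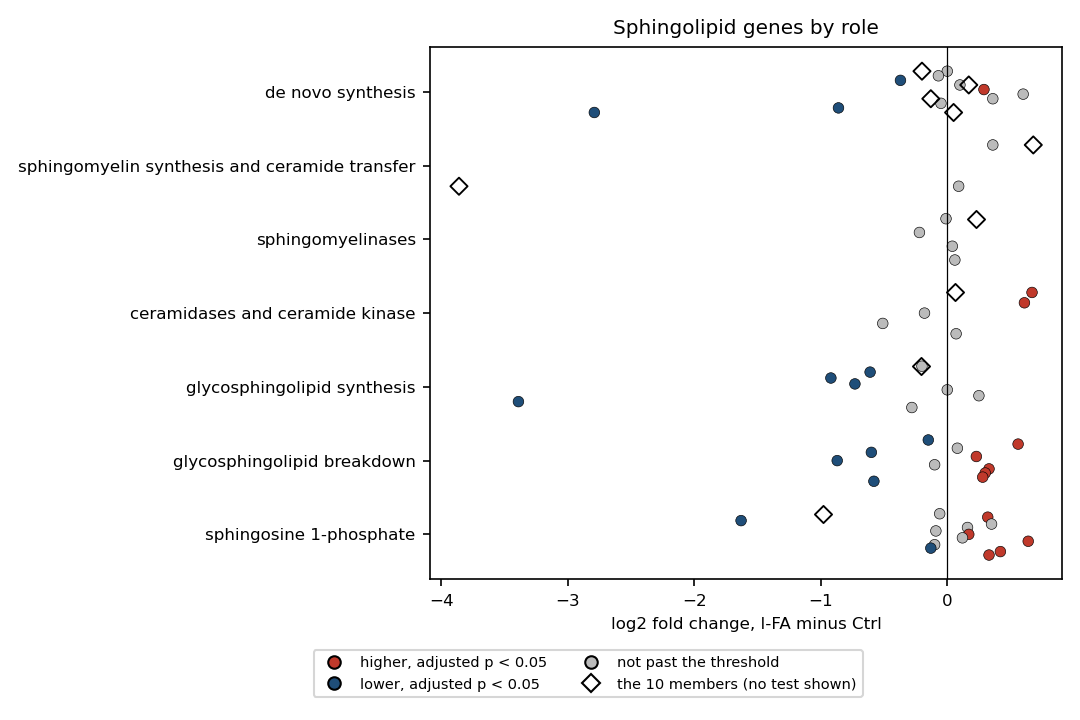
Log2 fold change of l-FA against Ctrl (horizontal axis) of the tested sphingolipid genes by role; circles are genes outside the 10, coloured by the edgeR call (adjusted p under 0.05), and diamonds the 10 genes, without a test. Smpd3 and Smpdl3b are left out because they are near 0 counts in a group. The circles of glycosphingolipid synthesis past the threshold, 4 of 8 tested, lie below 0. Of all genes tested 25.0% were lower, and no pattern of a role is read from these counts.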

How the data were processed

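HSC RNA was amplified as cDNA (SMART-Seq HT) and sequenced on an Illumina NovaSeq. The table that the authors deposited lists raw gene counts of every library beside FPKM values derived from them. The submitters' processing notes name HISAT2, SAMtools 1.3.1, StringTie, edgeR and GRCm39 without saying what each did. The length in the deposited FPKM was recovered from count, FPKM and library total. Counts were tested with edgeR 4.0.16 (R 4.3.3; TMM, filterByExpr, glmQLFit, glmQLFTest) with Benjamini-Hochberg adjustment over 16520 genes, in code tested on simulated data. The study's methods name DESeq2 with a 2-fold limit, used here as alternatives. Standard errors were taken as the log2 fold change over the root of the F statistic. The amplified cDNA carried no molecular identifiers, so counting intervals cover counting error only. The smallest exact permutation p of 3 libraries against 3 is 0.1, so none is given.

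The 10 genes, the pathway list and the marker lists were chosen with earlier results of these data known. Named genes were the 10, in each role the tested gene with the largest change and the most abundant one, those past an adjusted p of 0.05 and 2-fold, and the 5 nearest profiles to Sgms2. Both groups use the same replicate numbers, but no source used here says that they pair libraries. Alternatives were RLE and upper-quartile factors, DESeq2 1.42.0, testing with no filter on low counts or only genes with 10 counts or more in each library, a replicate block, each library left out, a fold limit and other length scales. Some genes of the pathway list are counted but not reported by name here.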

Additional observations from a re-analysis of the deposited data

How the results depend on the processing

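Sgms2 kept its log2 fold change of -3.86 between -3.87 and -3.84 under other scalings, filters, DESeq2 and the replicate block; leaving out single libraries gave -3.94 to -3.80. The directions of the other 7 genes apart from Degs1 and Asah1 did not change under any alternative. With the fold limit of 2, all genes called were 1103 higher and 843 lower, genes outside the 10 were 1 higher and 4 lower, and the 10 genes 0 higher and 1 lower. That limit removes smaller changes by construction. With each library left out, 3828 to 3944 genes were higher and 3614 to 3854 lower over all genes, 11 to 15 and 12 to 17 outside the 10, and 2 to 3 and 3 to 4 among them. The Sgms2 share of the pair, 64.7% in Ctrl and 7.25% in l-FA, was 41.9% and 2.99% by counts and 55.0% and 4.96% with merged exons, a scale chosen after seeing the data, and 64.1% to 65.1% and 6.87% to 7.51% with a library left out. With merged exons 6 genes kept their place in Ctrl; with a library left out 8 to 10 did in either group. Sptssa, at 0.00, changed sign under RLE factors and DESeq2 (0.00), upper-quartile factors (0.02), the filter of at least 10 counts (0.01), the replicate block (0.02) and 3 of the fits with a library left out, which ranged from -0.09 to 0.18 (0.18 without Ctrl replicate 3, 0.03 and 0.00 without l-FA replicates 3 and 2); Samd8 passed under upper-quartile factors (adjusted p = 0.0475, edgeR) and DESeq2 (adjusted p = 0.0454). For these results the cause was not tested.

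The replicate block left 3749 genes higher and 3656 lower in all, 15 and 12 outside the 10, and 2 and 3 among them. Deviations of same-numbered libraries correlated at 0.0107, -0.0109 and -0.0691, so the numbers gave no sign of a pairing. At this depth Sphk1, with 23 to 88 counts, is the gene of the 10 that depth limits most.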

Other observations

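The length behind the deposited FPKM was compared with GENCODE M21 for 25672 genes. It matched the sum of a gene's distinct exons within 1 base for 23161 of them. For genes with more than 1 transcript, 12851 of 14831 matched that sum, 1354 the sum of transcript lengths and 169 the merged exons. Exons that overlap between transcripts are thus counted more than once, and for 1578 of 27198 genes the length was longer than the gene's own span in the table. FPKM of the same gene compares libraries without the TMM factors, which were 0.9685 to 0.9787 in Ctrl and 1.025 to 1.032 in l-FA. Genes with many annotated transcripts, such as Sphk1 and Sgms1 (16 and 15 transcripts in M21), are listed lower than merged exons would put them.

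Of the other marker lists, 3 of 7 erythroid genes rose and 1 fell, 3 of 5 megakaryocyte genes rose, 2 of 4 mast cell and basophil genes rose, 1 of 3 tested B cell genes rose, and Nkg7, the only T and NK cell gene tested, fell (adjusted p = 4.3e-06, edgeR). Of all genes tested, 25.5% were higher and 25.0% lower. Summed levels (CPM without TMM factors) were 83.6 to 90.9 in Ctrl and 104 to 106 in l-FA for the erythroid list, and 201 to 210 and 302 to 310 for the megakaryocyte list. They were 71.8 to 75.2 and 97.9 to 106 for mast cells and basophils, 53.6 to 54.4 and 64.3 to 67.6 for B cells, and 524 to 551 and 309 to 321 for T and NK cells, the last nearly all Nkg7.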
